A study of Mus musculus with 6 samples.

Results

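The miR-29 family in the mouse comprises miR-29a, miR-29b and miR-29c (mmu-miR-29a, mmu-miR-29b and mmu-miR-29c in the deposited names), and it was followed here through every deposited entry whose mouse name carries one of these base names, whatever the arm of the hairpin or the length variant. This took 7 of the 1080 small RNA entries listed per library, and all 7 passed the filter on low values, which asked for an average of at least 1 across libraries. The rule reads names alone and no measured value. Small RNA was sequenced from a mouse neuroblastoma line, Neuro2A (N2A). The si-circCpsf6 group had 3 libraries, from cells whose circular RNA circCpsf6 was targeted by siRNA at 100 nM. The si-NC group had 3 libraries, from cells that received the control siRNA, also at 100 nM. All 6 shared the line, the medium and the lipid reagent, and nothing in the labels says whether the 3 of a group were separate cultures, so a p-value measures only the spread between these samples, which may be technical. The level of circCpsf6 was not analysed here, and the extent of silencing is therefore not given for any library.

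MicroRNAs (miRNAs) are short RNAs that guide Argonaute proteins to messenger RNAs, mostly by pairing through the seed near their 5′ end, and lower the output of those messages. Each is cut from a hairpin that yields a 5p and a 3p arm, of which usually one is kept as the guide and the other, the passenger, is mostly degraded. The miR-29 guides are the 3p arms. They are known for repressing collagens and other matrix genes, the DNA methyltransferases Dnmt3a and Dnmt3b and the survival factor Mcl1, and in mouse brain the family is known to accumulate as neurons mature.

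The 3 guides are shown first because they share a seed and differ only behind it. All 7 entries matched a mature miRNA of the RefSeq annotation (GRCm38.p6), from which the sequences were taken, written 5′ to 3′ with the seed, bases 2 to 8, in capitals.
miR-29a-3p: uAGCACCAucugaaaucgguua
miR-29b-3p: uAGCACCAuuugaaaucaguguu
miR-29c-3p: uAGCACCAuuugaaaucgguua
The seed AGCACCA was found in 3 of 1679 mature mouse miRNA sequences (0.179%), these same guides. Counting positions from 1 at the 5′ end, miR-29c-3p differs from miR-29a-3p by C10U alone. Against miR-29a-3p, miR-29b-3p carries C10U, G18A, U21G and A22U and is longer by 1 base. Against miR-29c-3p, it carries G18A, U21G and A22U. Both miR-29b-3p and miR-29c-3p have U at bases 9 to 11, a feature known in human cells to go with faster loss of the miRNA, and it was present in 24 of the 1679 mature sequences (1.43%). The ending of miR-29b-3p holds AGUGUU, known from human cells as an element for nuclear import, and these letters occurred in 12 of the 1679 (0.715%). These matches describe letters only.

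The passenger arms have seeds of their own. Each was deposited as a single length variant, and the suffix of its name was read as bases added (+) or removed (-) at the left (L) or right (R) end of the mature sequence. The variants below were read from the RefSeq hairpins in that way, because their ends decide the seed.
miR-29a-5p, R+3: aCUGAUUUcuuuugguguucagagu
miR-29b-1-5p, R+2: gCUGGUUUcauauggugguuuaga
miR-29b-2-5p, R-2: cUGGUUUCacaugguggcuuaga
miR-29c-5p, L-2R+3: aCCGAUUUcuccugguguucaga
With 2 bases removed on the left, the deposited miR-29c-5p entry reads CCGAUUU at bases 2 to 8, where the RefSeq mature form reads GACCGAU. The other passenger entries keep the RefSeq start and hence the RefSeq seed.

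The family comes from 4 hairpins in 2 clusters. On GRCm38, which is not the authors' build, Mir29a (31062660-31062747) and Mir29b-1 (31063023-31063093) lie on the minus strand of chromosome 6 with 275 bases between them. In the GENCODE annotation Mir29a overlaps no other gene, and Mir29b-1 overlaps an exon of the long noncoding gene Gm27019 by 2 bases. Mir29b-2 (195037040-195037120) and Mir29c (195037547-195037634) lie on the plus strand of chromosome 1 with 426 bases between them. Both fall in an exon of the processed transcript A330023F24Rik and lie opposite a UTR exon of Cd46, a complement regulator gene on the other strand. The miR-29b-3p sequence is the same at chr6:31063025-31063047 on the minus strand and at chr1:195037091-195037113 on the plus strand, so its reads cannot be divided between the clusters. The 5p arms of miR-29b differ in sequence and can be.

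The values are the authors' normalized read numbers, rounded to whole numbers, and they summed to between 2874209 and 3268351 in si-circCpsf6 libraries and between 2570449 and 3045133 in si-NC libraries. As normalized totals these do not give the read depth. The si-NC replicate 3 library stood apart. It held 558 entries at 1 or more, against 717 to 849 in the si-circCpsf6 libraries and 840 and 815 in si-NC replicates 1 and 2, so results are given with and without it where it moves them. The labels call the cells neuroblasts, and 5 of 5 neuronal miRNA markers were listed, summing to between 22674 and 35716 in si-circCpsf6 libraries and between 21414 and 46083 in si-NC libraries. Of 5 mesenchymal and fibroblast markers 4 were listed, and their sums were larger, 84794 to 107228 in si-circCpsf6 libraries and 66409 to 105495 in si-NC libraries, mostly miR-143-3p. Marker sums of blood (3 of 5 listed, 13 to 32 in si-circCpsf6 and 27 to 46 in si-NC libraries) and liver (0 in every si-circCpsf6 library, 0 to 5 in si-NC libraries) were near 0. Muscle markers (2 of 3 listed) summed to 43 to 72 in si-circCpsf6 and 49 to 132 in si-NC libraries, and the endothelial marker miR-126a-3p stood at 2869 to 4301 in si-circCpsf6 and 2931 to 4117 in si-NC libraries. The 5 of 5 listed epithelial markers summed to 7 to 62 in si-circCpsf6 and 151 to 431 in si-NC libraries. In such bulk samples fewer cells of a type and less RNA per cell cannot be told apart.

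Across all 916 entries tested, limma on log2(value + 1) after Benjamini-Hochberg adjustment called none different between si-circCpsf6 and si-NC at an adjusted p under 0.05, so that 0.0% of entries were called and the lowest adjusted p was 0.0923. At an unadjusted p under 0.05 there were 57 entries, 6.22% of those tested, 30 of them higher in si-circCpsf6 (3.28%) and 27 lower (2.95%). None of the 7 miR-29 entries was among them. Entries whose si-circCpsf6 values did not overlap their si-NC values numbered 107 (11.7%), with 62 higher (6.77%) and 45 lower (4.91%) in si-circCpsf6. Of the 7 miR-29 entries 2 were of this kind, miR-29a-3p and miR-29b-1-5p, both higher in si-circCpsf6 and both from the chromosome 6 cluster. The log2 change was above 0 for 4 members and below 0 for 3, with a median of 0.10, beside 515 above and 401 below and a median of 0.086 over all entries tested.

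**Figure D1:**
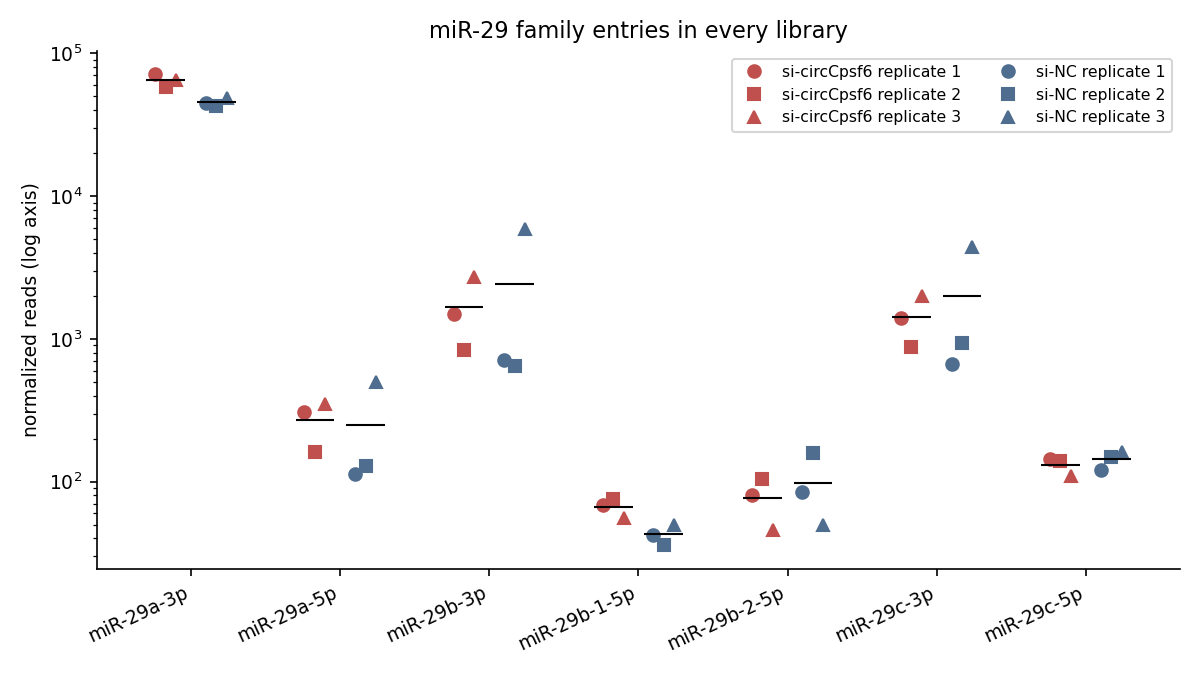
Normalized reads (log axis) of the 7 miR-29 entries in each library, si-circCpsf6 left of si-NC for each entry, with a short line at each group's mean. Values of miR-29a-3p and miR-29b-1-5p do not overlap between the groups, and si-NC replicate 3 lies far above the other si-NC libraries for miR-29b-3p, miR-29c-3p and miR-29a-5p.

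Most of the family was miR-29a-3p. It had 71296, 58017 and 64901 normalized reads in si-circCpsf6 replicates 1, 2 and 3, against 44778, 42453 and 48633 in si-NC replicates 1, 2 and 3. Every si-circCpsf6 library lay above every si-NC library. The means were 64738 ± 6641 in si-circCpsf6 and 45288 ± 3121 in si-NC libraries (SD, n = 3 each), a fold of 1.43. On the log2 scale the change was 0.51 with an SE of 0.25, and it did not pass the threshold (limma, adjusted p = 0.735). Without si-NC replicate 3 the fold of means was 1.48 and the log2 change 0.57 (limma, adjusted p = 0.183). The authors' deposited table gives the same fold of 1.43 with an unadjusted p of 0.0218. Over the 6 libraries miR-29a-3p ranked 11 by mean among 1046 entries left after identical rows were merged. Its rank was 5, 11 and 7 in si-circCpsf6 replicates 1 to 3, against 15, 14 and 11 in si-NC replicates 1 to 3. Its share of all normalized reads was 2.48%, 1.78% and 2.25% in si-circCpsf6 replicates 1 to 3, against 1.47%, 1.45% and 1.89% in si-NC replicates 1 to 3. By share, si-circCpsf6 replicate 2 lay below si-NC replicate 3, so the groups overlapped on that scale. The summed epithelial markers given above also separated the groups. Taken singly, miR-200a-3p, miR-200c-3p and miR-429-3p did so too, while miR-200b-3p and miR-141-3p overlapped. The part of these markers in the difference of miR-29a-3p was not tested.

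The other guides, miR-29b-3p and miR-29c-3p, stood far below miR-29a-3p and varied much more within each group. For miR-29b-3p there were 1486, 835 and 2700 normalized reads in the si-circCpsf6 libraries, against 712, 645 and 5874 in the si-NC libraries. Both the lowest and the highest of the 6 values were in the si-NC group. The means of 1674 ± 947 in si-circCpsf6 and 2410 ± 3000 in si-NC libraries (SD, n = 3 each) gave a fold of 0.694, while the log2 change was 0.10 with an SE of 0.83 (limma, adjusted p = 0.992). The fold of means and the log2 change thus differ in sign, and without si-NC replicate 3 the fold was 2.47 and the log2 change 1.14 (limma, adjusted p = 0.394). Leaving out si-circCpsf6 replicate 3 gave -0.32, si-NC replicate 1 gave -0.38 and si-NC replicate 2 gave -0.45, so several single libraries turned its sign.

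For miR-29c-3p, which matches miR-29b-3p through base 17, the normalized reads were 1407, 881 and 1981 in the si-circCpsf6 libraries, against 665, 928 and 4377 in the si-NC libraries. Again the si-NC group held both extremes. The means were 1423 ± 550 in si-circCpsf6 and 1990 ± 2071 in si-NC libraries (SD, n = 3 each), a fold of 0.715. The log2 change was -0.046 with an SE of 0.67 (limma, adjusted p = 0.992). Without si-NC replicate 3 the fold was 1.79 and the log2 change 0.78 (limma, adjusted p = 0.437). Without si-circCpsf6 replicate 2 the log2 change was 0.26 (limma, adjusted p = 0.973), so leaving out either of these libraries turned the sign. The authors' deposited table gives folds of 0.69 for miR-29b-3p and 0.72 for miR-29c-3p, with unadjusted p-values of 0.718 and 0.687. The guides differ by few bases, and how reads that could come from more than 1 of them were assigned is not given in the sources used here, so the division of reads among them is uncertain.

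The passenger arms from chromosome 6 had log2 changes above 0. The miR-29a-5p entry had 305, 162 and 350 normalized reads in the si-circCpsf6 libraries, against 114, 129 and 502 in the si-NC libraries. As with the minor guides, the highest value of all was si-NC replicate 3 and the lowest was another si-NC library. Its log2 change was 0.41 with an SE of 0.62 (limma, adjusted p = 0.952), and the means were 272 ± 98.2 in si-circCpsf6 and 248 ± 220 in si-NC libraries (SD, n = 3 each). The fold of means was 1.10 with all libraries and 2.24 without si-NC replicate 3, where the log2 change was 1.09 (limma, adjusted p = 0.332). Without si-NC replicate 1 or 2 the log2 change was 0.022 or 0.11.

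The passenger of the other chromosome 6 hairpin, miR-29b-1-5p, was the least abundant member. Its normalized reads were 69, 75 and 56 in the si-circCpsf6 libraries, against 42, 36 and 50 in the si-NC libraries. Each si-circCpsf6 value exceeded each si-NC value, with 56 and 50 as the nearest. The means were 66.7 ± 9.71 in si-circCpsf6 and 42.7 ± 7.02 in si-NC libraries (SD, n = 3 each), a fold of 1.56. Its log2 change was 0.63 with an SE of 0.53 (limma, adjusted p = 0.884), and in the authors' deposited table its fold is 1.56 with an unadjusted p of 0.0313.

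The passengers from chromosome 1 had log2 changes below 0. The miR-29b-2-5p entry had 81, 105 and 46 normalized reads in the si-circCpsf6 libraries, against 85, 159 and 50 in the si-NC libraries. The groups overlapped widely, and replicate 3 was the lowest library of each. Its log2 change was -0.26 with an SE of 0.61 (limma, adjusted p = 0.982). For miR-29c-5p, the entry with the shifted seed, the normalized reads were 144, 140 and 109 in the si-circCpsf6 libraries, against 120, 148 and 162 in the si-NC libraries. These also overlapped, and the log2 change was -0.13 with an SE of 0.40 (limma, adjusted p = 0.992). Without si-NC replicate 3 the log2 change of miR-29b-2-5p was -0.66 (limma, adjusted p = 0.506). Leaving out si-NC replicate 2 gave miR-29b-2-5p a log2 change of 0.16, and leaving out si-circCpsf6 replicate 3 gave 0.069. An entry named after the platypus miR-29a-3p, which is not a member, stood at 3, 2 and 0 in si-circCpsf6 replicates 1 to 3, against 0, 4 and 0 in si-NC replicates 1 to 3.

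**Figure D2:**
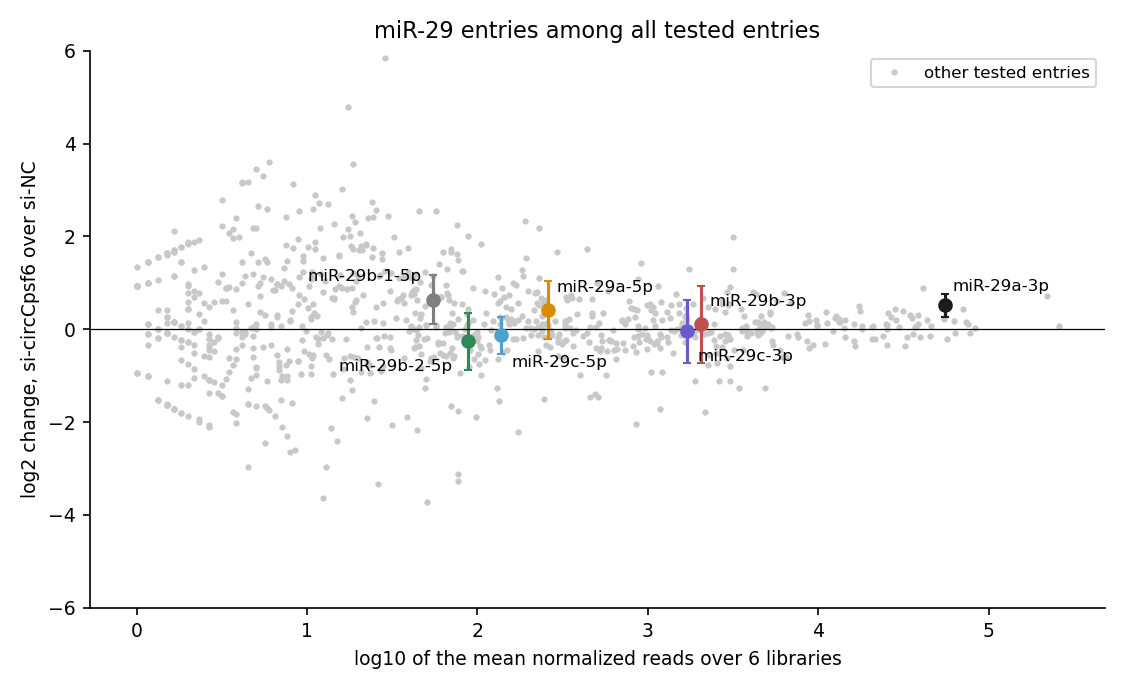
Log2 change (si-circCpsf6 over si-NC, on log2(value + 1)) against log10 of the mean normalized reads over the 6 libraries for the 916 entries tested, grey, with the 7 miR-29 entries coloured and their SE as bars. The bars of miR-29a-3p, at 0.51, and miR-29b-1-5p, at 0.63, stay above 0, and the bars of the other miR-29 entries cross 0. A bar shows the SE and is not a test, and no miR-29 entry passed the threshold.

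Summed over its members, the family reached 74788, 60215 and 70143 normalized reads in si-circCpsf6 replicates 1 to 3, against 46516, 44498 and 59648 in si-NC replicates 1 to 3. The groups did not overlap, with si-circCpsf6 replicate 2 and si-NC replicate 3 close together. The means were 68382 ± 7444 in si-circCpsf6 and 50221 ± 8226 in si-NC libraries (SD, n = 3 each), a fold of 1.36. The difference of mean log2 sums was 0.45, with an exact two-sided permutation p of 0.1, the smallest that 3 libraries against 3 can give. Without si-NC replicate 3 the difference was 0.58. As a share of all normalized reads the family took 2.60%, 1.84% and 2.44% in the si-circCpsf6 libraries, against 1.53%, 1.52% and 2.32% in the si-NC libraries, and here the groups overlapped. With the values rescaled to equal library totals the difference was 0.37 and the exact permutation p 0.2.

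The makeup of the family set si-NC replicate 3 apart. In the si-circCpsf6 libraries miR-29a-3p made up 95.3%, 96.3% and 92.5% of the family sum, against 96.3%, 95.4% and 81.5% in the si-NC libraries. Together miR-29b-3p and miR-29c-3p made up 3.87%, 2.85% and 6.67% in the si-circCpsf6 libraries, against 2.96%, 3.53% and 17.2% in the si-NC libraries. In each group replicate 3 thus had the largest share of the minor guides. Since a read spans the whole mature miRNA, these levels carry no length term, but how well each sequence is captured in a library was not measured.

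Ratios between guides do not move with the scaling of a library, but with 3 libraries against 3 the exact permutation test cannot give a p under 0.1, so no ratio could pass at 0.05. The ratio of miR-29a-3p to miR-29c-3p was 50.6, 65.8 and 32.7 in the si-circCpsf6 libraries, against 67.2, 45.7 and 11.1 in the si-NC libraries. The mean log2 ratio was higher by 0.56 in si-circCpsf6 (exact permutation p = 0.7, adjusted over the 3 ratios 0.8), and the difference was -0.21 without si-NC replicate 3. For miR-29b-3p over miR-29a-3p the ratio was 0.0209, 0.0144 and 0.0416 in the si-circCpsf6 libraries, against 0.0159, 0.0152 and 0.121 in the si-NC libraries. That log2 difference was -0.41 (exact permutation p = 0.8, adjusted 0.8), and it was 0.58 without si-NC replicate 3. The ratio of miR-29b-3p to miR-29c-3p was the steadiest, at 1.06, 0.948 and 1.36 in the si-circCpsf6 libraries, against 1.07, 0.695 and 1.34 in the si-NC libraries. It differed by 0.15 on the log2 scale (exact permutation p = 0.7, adjusted 0.8), and by -0.11 without si-NC replicate 2. These 2 guides thus stayed between 0.695 and 1.36 of each other while both varied several fold against miR-29a-3p. They share the U run behind the seed and are cut in part from the same cluster, and the part of either in this was not tested.

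The balance of guide and passenger was compared in the same way, with the same limit. For miR-29a the 3p arm exceeded the 5p arm by 233, 356 and 185 fold in the si-circCpsf6 libraries, against 389, 327 and 96.7 fold in the si-NC libraries. For miR-29b, with both passengers summed, the ratio was 9.85, 4.62 and 26.2 in the si-circCpsf6 libraries, against 5.57, 3.30 and 58.2 in the si-NC libraries. For miR-29c it was 9.71, 6.26 and 18.0 in the si-circCpsf6 libraries, against 5.50, 6.23 and 26.9 in the si-NC libraries. The guide was the more abundant arm in every library for each of them. The log2 ratios differed by 0.11 for miR-29a, 0.053 for miR-29b and 0.083 for miR-29c between si-circCpsf6 and si-NC, with exact permutation p-values of 0.9, 1 and 0.8, all 1 after adjustment over the 3 ratios. Leaving out si-NC replicate 3 gave differences of -0.52, 1.31 and 0.81. The sign also turned for miR-29a without si-circCpsf6 replicate 2 (-0.15). Without si-circCpsf6 replicate 3, si-NC replicate 1 or si-NC replicate 2 the differences were -0.60, -0.38 and -0.76 for miR-29b and -0.32, -0.33 and -0.24 for miR-29c. For miR-29b, only the passengers of its separate hairpins have reads that can be divided between the clusters. How far their levels follow the amount of miR-29b-3p from each cluster was not measured. The ratio of miR-29b-1-5p to miR-29b-2-5p was 0.852, 0.714 and 1.22 in the si-circCpsf6 libraries, against 0.494, 0.226 and 1.00 in the si-NC libraries.

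**Figure D3:**
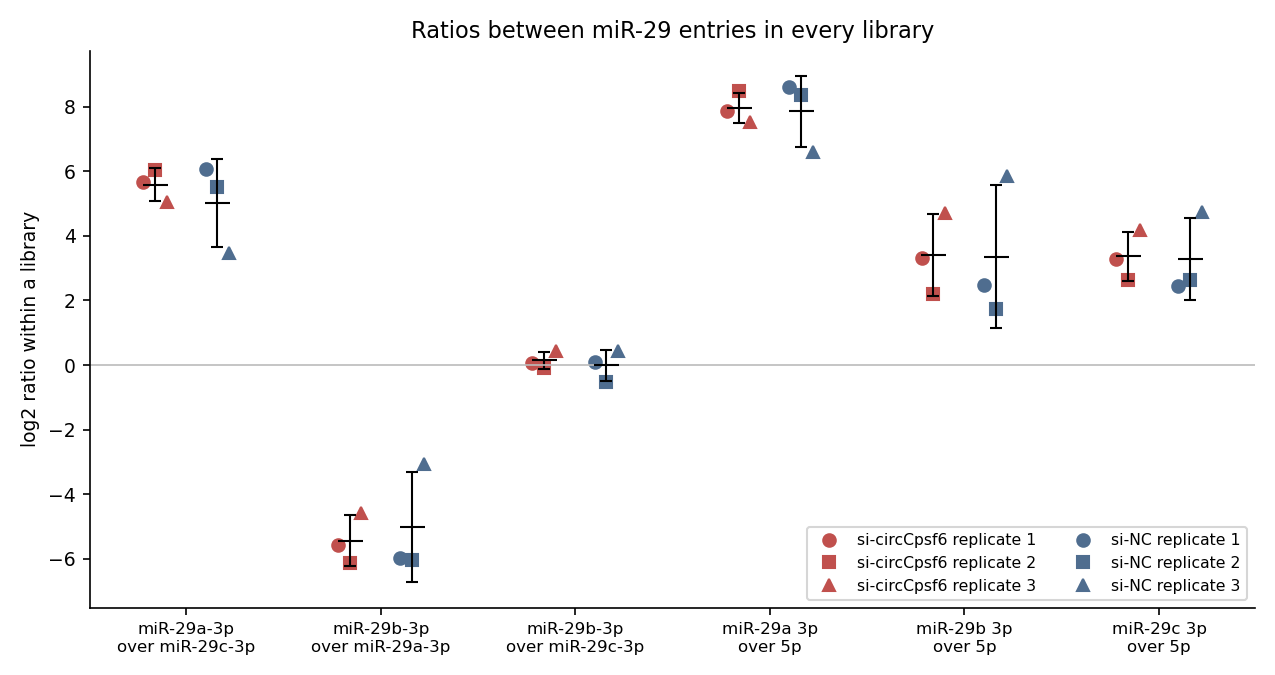
Log2 ratios between miR-29 entries within each library (vertical axis), si-circCpsf6 left of si-NC for each ratio, with the mean as a line and the SD as bars. In every ratio si-NC replicate 3 lies at one end of the si-NC group, and miR-29b-3p over miR-29c-3p is near 0 in every library.

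The entries fell into different profiles over the 6 libraries. Within the si-circCpsf6 group the largest miR-29b-3p value was 3.23 times the smallest, that of miR-29c-3p 2.25 times, that of miR-29a-5p 2.16 times and that of miR-29a-3p 1.23 times. Within the si-NC group the same range was 9.11 for miR-29b-3p, 6.58 for miR-29c-3p, 4.40 for miR-29a-5p and 1.15 for miR-29a-3p. Over the 372 entries with a mean of 100 or more and a value above 0 in every library, the median range was 1.54 within si-circCpsf6 and 2.13 within si-NC. Of the 372, 14 (3.76%) had a narrower si-NC range than miR-29a-3p. The excess in si-NC replicate 3 over the mean of si-NC replicates 1 and 2 was 8.66 fold for miR-29b-3p, and 4 of the 372 entries had a larger one. For miR-29c-3p it was 5.50 fold, with 11 entries larger, and for miR-29a-5p 4.13 fold, with 21 larger. It was 1.12 fold for miR-29a-3p, and the median over the 372 was 0.887. In the same library the neuronal markers summed to their highest value, 46083, and the mesenchymal markers to their lowest, 66409, and their part in these excesses was not tested. Most of that neuronal sum was miR-218-5p at 35424. Also higher there than in si-NC replicates 1 and 2 were miR-124-3p at 572 (against 183 and 203) and miR-138-5p at 6930 (against 3989 and 3287). Those 2 markers reached 711 and 9257 in si-circCpsf6 libraries. By contrast, miR-9-5p at 154 and miR-128-3p at 3003 were not higher there than in the other si-NC libraries.

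**Figure D4:**
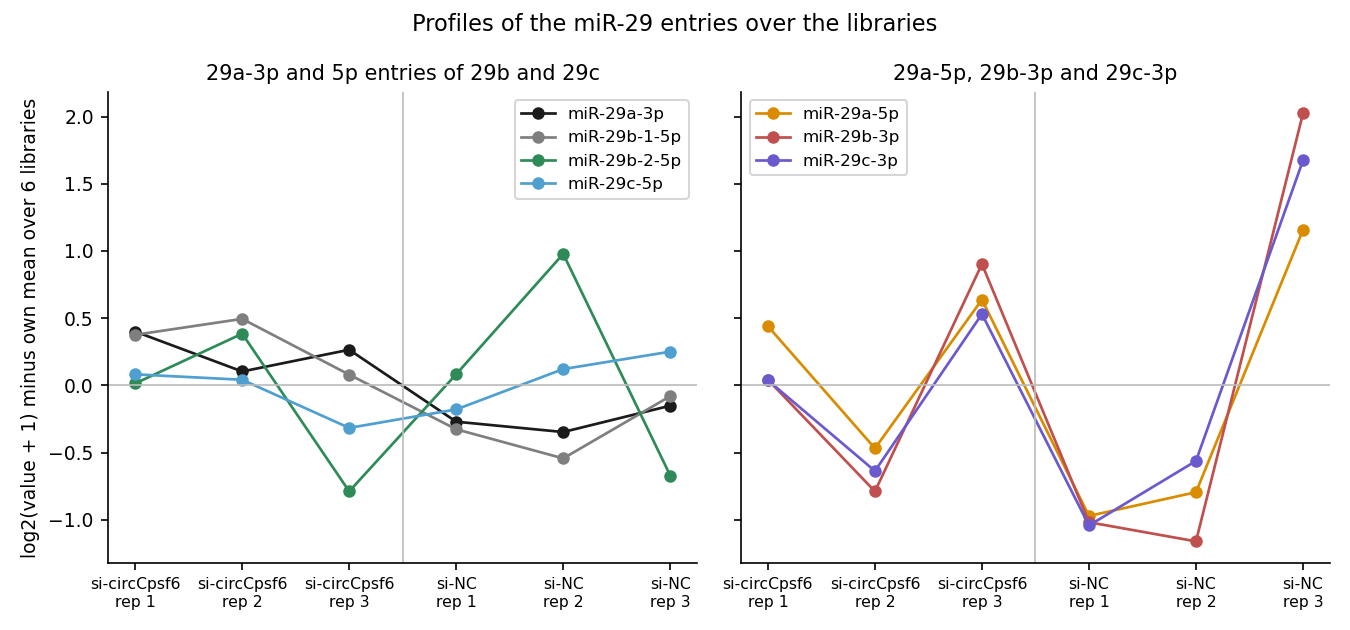
Each miR-29 entry as log2(value + 1) minus its own mean over the 6 libraries, si-circCpsf6 libraries left of the grey line and si-NC libraries right of it. The entries were divided between the panels after their values were seen: in the right panel miR-29a-5p, miR-29b-3p and miR-29c-3p peak in si-NC replicate 3, and in the left panel miR-29a-3p and miR-29b-1-5p are higher in si-circCpsf6.

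Profiles were set side by side by the root mean square difference of these centred log2 values over the 6 libraries, among mouse-named entries outside the family with a mean of 100 or more, as a description with no test. The 5 most like miR-29a-3p were miR-378c at 0.123, miR-700-5p and miR-107-3p at 0.131 and 0.133, miR-101b-3p at 0.159 and miR-872-3p at 0.174. Of these miR-107 is known for repressing Dicer and miR-101 for repressing the histone methyltransferase Ezh2. By the same measure miR-29b-1-5p, from the same cluster, stood at 0.198 from miR-29a-3p, and miR-29a-5p, from the same hairpin, at 0.692, which would rank 256 among 345 candidates. The guides miR-29c-3p and miR-29b-3p, with the same seed, would rank 300 and 324. For miR-29b-3p the most alike was miR-297a-5p at 0.191, and miR-29c-3p would rank 7 at 0.327. For miR-29c-3p the most alike were miR-190a-5p at 0.110 and miR-15a-5p, a repressor of Bcl2, at 0.153. Measured from miR-29c-3p, miR-29a-5p would rank 12 at 0.297 and miR-29b-3p 18 at 0.327. In si-NC replicate 3 miR-15a-5p had 13188 normalized reads, against 1947 and 2368 in si-NC replicates 1 and 2.

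The 3 members with the largest excess in si-NC replicate 3 had the lowest GC content of the family. GC content was taken from the RefSeq mature form and not from the deposited length variant. It was 34.8% for miR-29b-3p, 36.4% for miR-29a-5p and miR-29c-3p and 40.9% for miR-29a-3p and miR-29b-1-5p. For miR-29b-2-5p it was 44% and for miR-29c-5p 50%. The miR-29c-5p entry was also highest in that library, by 1.21 fold over the mean of the other si-NC libraries. The same direction was seen outside the family. Among 274 mouse miRNA entries with a mean of 100 or more and a known sequence, the median of si-NC replicate 3 over si-NC replicates 1 and 2 was 1.47 for the 24 under 35% GC and 1.34 for the 37 between 35% and 40%. It was 1.04 for the 45 between 40% and 45%, 0.774 for the 62 between 45% and 50% and 0.619 for the 106 at 50% or more. The fitted slope of a library on GC content was -0.48 log2 units per 10 points of GC in si-NC replicate 3. In the other libraries it was 0.022, 0.18 and -0.10 in si-circCpsf6 replicates 1 to 3, and 0.20 and 0.18 in si-NC replicates 1 and 2. With each library's GC trend removed, an alternative chosen after seeing the data, the log2 change was 0.41 for miR-29a-3p (limma, adjusted p = 0.796), 0.037 for miR-29b-3p and -0.12 for miR-29c-3p. The family sum then differed by 0.36 (exact permutation p = 0.3). Removal ran on the 541 entries with a known sequence and also brought each library to the same mean log2 level over them. These log2 changes and the family sum therefore do not give the effect of GC content alone. The log2 ratio of miR-29a-3p to miR-29c-3p then differed by 0.53, beside 0.56 before removal. For miR-29b-3p over miR-29a-3p the difference was -0.37, beside -0.41 before removal. The part of GC content in the excesses of si-NC replicate 3 was not tested. Of 5 entries with U at bases 9 to 11 and a mean of 100 or more, 2 were higher in si-NC replicate 3 than in the mean of the other si-NC libraries, namely miR-29b-3p and miR-29c-3p, beside 169 of all 372 entries (45.4%).

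**Figure D5:**
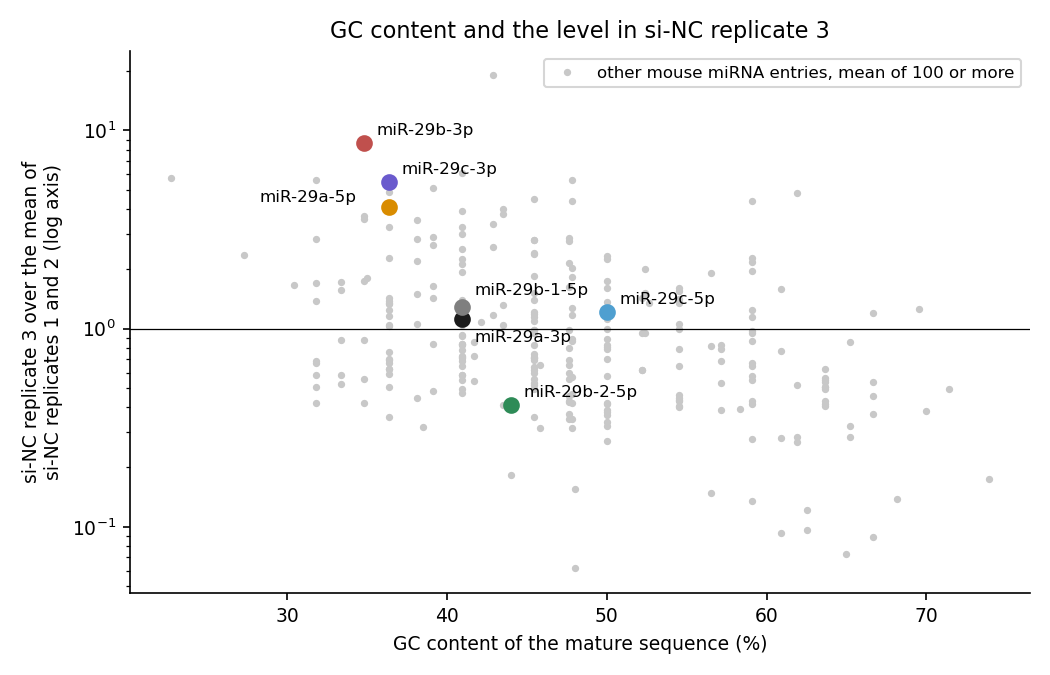
GC content of the mature sequence (percent) against the value in si-NC replicate 3 over the mean of si-NC replicates 1 and 2 (log axis), for 274 mouse miRNA entries with a mean of 100 or more, grey except for miR-29 entries, which are coloured. All 7 miR-29 entries are drawn, miR-29b-1-5p and miR-29b-2-5p with means under 100. Entries of low GC lie more often above 1, and miR-29b-3p at 34.8% GC and 8.66 fold is among the highest.

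The family was set beside lists of miRNAs with related roles. Of 10 miRNAs known to mark brain maturation, all 10 were tested and none passed the threshold in either direction (limma, against 0.0% of all entries called), 6 were higher and 4 lower in si-circCpsf6, and the median log2 change was 0.15. The most abundant, miR-218-5p, a motor neuron miRNA, had 19034, 12454 and 24693 normalized reads in the si-circCpsf6 libraries, against 17687, 14739 and 35424 in the si-NC libraries, highest in si-NC replicate 3. For miR-125b-5p, which is abundant in neurons, they were 16568, 16149 and 12808 in si-circCpsf6 libraries, against 14644, 16762 and 9033 in si-NC libraries. For miR-137-3p, a brain miRNA that represses Ezh2 and Kdm1a, they were 8660, 6868 and 12964 in si-circCpsf6 libraries, against 5588, 4933 and 18757 in si-NC libraries. The groups of all of these overlapped. For miR-138-5p, known from dendritic spines, they were 9257, 6776 and 7435 in si-circCpsf6 libraries, against 3989, 3287 and 6930 in si-NC libraries, a log2 change of 0.79 with an SE of 0.33 (limma, adjusted p = 0.720). Of the 10, 2 did not overlap between the groups, miR-132-3p higher and miR-9-5p lower in si-circCpsf6, beside 11.7% of all entries tested.

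Of 7 miRNAs that, like miR-29, are known to act on DNA or histone methylation enzymes, all 7 were tested. None passed in either direction (limma), with 2 higher and 5 lower in si-circCpsf6 and -0.16 as the median log2 change. Among the lower, miR-148a-3p had few reads, at 4, 6 and 0 in si-circCpsf6 libraries, against 0, 8 and 23 in si-NC libraries. The one with most reads, miR-26a-5p, another repressor of Ezh2, had 31666, 28068 and 33604 normalized reads in the si-circCpsf6 libraries, against 38817, 34758 and 30875 in the si-NC libraries. For miR-101b-3p they were 32910, 35648 and 38607 in si-circCpsf6 libraries, against 25264, 27927 and 28797 in si-NC libraries. It was the 1 of the 7 whose groups did not overlap, beside 11.7% of all entries tested, with a log2 change of 0.39 and an SE of 0.24 (limma, adjusted p = 0.735). For miR-148b-3p, of the family known for repressing Dnmt1, they were 12344, 18671 and 12997 in si-circCpsf6 libraries, against 17337, 21894 and 13535 in si-NC libraries. For miR-26b-5p they were 12599, 10411 and 17253 in si-circCpsf6 libraries, against 12287, 12168 and 20985 in si-NC libraries. Both overlapped between the groups.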

How the data were processed

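Per the file headers, each library's column holds read numbers that the authors normalized, and its values are whole. Such a deposited value is called a score here and not a raw count, and the depth is unknown. The fold of group means and the t-test p-value credited to the authors' deposited table are theirs, per the file headers. The build was mm9, per the submitters' processing notes, while aligner, miRNA reference release and the way values were normalized are not given in the labels or files. Libraries were made with a TruSeq small RNA kit from Trizol RNA, per the labels' protocols. Samples were grouped by title.

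Identical rows were merged as copies (1080 to 1046 entries). Entries averaging at least 1, 916 in all, went into limma 3.58.1 (trended variance, R 4.3.3) as log2(value + 1). The model held the group alone, and p-values were adjusted over all 916 by Benjamini-Hochberg at 0.05. A log2 change on this scale understates changes of low entries. A count test did not apply. Two-sided exact permutation tests served for the family sum, the guide ratios and the arm ratios (each value plus 1). The limma step was tested on simulated data. All 7 members were named, with up to 4 most abundant members of each list and the 5 nearest profiles of miR-29a-3p. Nearest profiles of other members, miR-132-3p, miR-9-5p and miR-148a-3p were named after their values were seen. The members, lists and markers were chosen with earlier results of these data known. Alternatives were pseudocounts 0.1 and 5, other filters, rescaled values, a replicate block, each library left out, identical rows kept apart and mouse-named entries alone. Added after seeing the data was removal of each library's linear GC trend, slope and intercept, on entries with a known sequence. A RefSeq mature sequence was known for 541 of 646 tested mouse-named entries that name a mature miRNA (83.7%). Python 3.11.15, numpy 2.4.6, pandas 2.3.3 and matplotlib 3.10.9 were used.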

Additional observations from a re-analysis of the deposited data

How the results depend on the processing

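Over 112 recomputed log2 changes of the 7 members (16 alternatives each), 105 kept their direction and side of the threshold and 7 changed sign, all of these when 1 library was left out. No alternative brought a member past the threshold. For miR-29a-3p the log2 change ranged from 0.41 to 0.59 and the limma adjusted p from 0.183 to 0.918. Leaving out each library in turn gave 0.022 to 1.09 for miR-29a-5p, -0.45 to 1.14 for miR-29b-3p, -0.58 to 0.78 for miR-29c-3p and -0.66 to 0.16 for miR-29b-2-5p. It gave 0.37 to 0.58 for the family sum. For ratios of guides it gave -0.21 to 1.08 (miR-29a-3p over miR-29c-3p), -0.92 to 0.58 (miR-29b-3p over miR-29a-3p) and -0.11 to 0.36 (miR-29b-3p over miR-29c-3p). For arm ratios it gave -0.52 to 0.48 (miR-29a), -0.76 to 1.31 (miR-29b) and -0.33 to 0.81 (miR-29c). The cause was not tested. Without si-NC replicate 3, limma called 4 of all entries, none of them a miR-29 entry, and 132 had an unadjusted p under 0.05, against 57 with all libraries. Every other alternative called 0, with 43 to 87 at an unadjusted p under 0.05 (0 to 4 called over the libraries left out).

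The deviations of same-numbered libraries had correlations of 0.047, 0.48 and 0.40 for replicates 1, 2 and 3, the highest for each si-circCpsf6 library. For replicate 1 the correlation was near 0. Across numbers, si-circCpsf6 replicate 2 with si-NC replicate 3 gave -0.44, and si-circCpsf6 replicate 3 with si-NC replicate 2 gave -0.40. Of the si-NC libraries, replicate 1 correlated best with a library of another number, si-circCpsf6 replicate 2 (0.18). The main model did not take the numbers as pairs, and an effect shared by same-numbered libraries was not tested. With the replicate block 0 entries were called and 87 had an unadjusted p under 0.05. The family sum differed by 0.45 (exact paired permutation p = 0.25, the smallest that 3 pairs can give). With 3 libraries a group and no counts, changes of the size seen for miR-29b-3p and miR-29c-3p cannot be told from the spread between libraries.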
